A study of Homo sapiens with 10 samples.

Results

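Proteins that are secreted or sit in membranes enter the endoplasmic reticulum (ER) through a shared machinery, and 34 of its genes were followed here in HepG2 cells under ER stress. The genes were taken by name from the rows of a table of 32738 genes and cover the signal recognition particle (SRP) and its receptor, the SEC61 channel with its partners, the translocon-associated protein (TRAP) complex, the signal peptidase and the tail-anchor insertion pathway. HepG2 is a human hepatoma line, and here it was cultured in growth medium alone (untreated) or in medium with 2 µg/ml tunicamycin for 17 h, with 5 libraries per condition from experiments on separate days. Tunicamycin inhibits N-linked glycosylation, so that glycoproteins misfold in the ER. Untreated cells received plain medium, and a vehicle control is not among the groups. All values are read counts from the 3′ ends of mRNAs of one cell line, and they measure neither protein nor translocation.

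SRP binds a signal sequence as it leaves the ribosome and brings the ribosome to its receptor on the ER. The chain then passes through the SEC61 channel, TRAP and TRAM contact it on the way, and signal peptidase cuts the signal off on the lumenal side. Proteins with a single membrane anchor at their C-terminal end take another route and are handed by SGTA, BAG6 and ASNA1 to a receptor made of WRB and CAMLG. Many genes of this machinery are known targets of the unfolded protein response, in which XBP1 and ATF6 bind short elements in promoters.

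Libraries held 2234682 to 5029864 counts, the lowest in tunicamycin replicate 5. Normalized counts divide each count by its library's total, rescaled by edgeR's TMM method, and bring it back to the mean library, so they are shares of each library's RNA. Fewer cells with a transcript and less of it per cell cannot be told apart in such bulk values. The ER stress genes chosen as a check were higher with tunicamycin. DNAJB9, a BiP co-chaperone, was at 13.4 ± 6.89 normalized counts without and 183 ± 48.7 with tunicamycin (SD, n = 5 each), and HERPUD1 and SDF2L1 rose as well, with log2 fold changes of 2.78 and 1.71. The hepatocyte markers ALB, AFP, APOA1, APOB, TTR, TF, FGB and SERPINA1 were all detected, and 5 of the 8 fell with tunicamycin, though TF was not called without untreated replicate 4 (log2 fold change -0.30, adjusted p = 0.0564 by edgeR). Of 7 marker genes of blood, endothelial, fibroblast and muscle cells, PTPRC and DES were at 0 counts in all 10 libraries, CD14, VWF, COL1A1 and COL3A1 had 0 to 5 counts per library, and ACTA2 alone passed the filter on low counts and was not called.

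Of the 34 genes, 33 passed the filter on low counts, and 25 of them were higher with tunicamycin when tested with edgeR (quasi-likelihood, adjusted p under 0.05), while 0 were lower, also at an unadjusted p under 0.05 and by DESeq2. Among all 12733 genes tested, 17.6% were called higher and 16.6% lower. The members were chosen with earlier results of these data known, so the contrast with all genes is a description and no independent support. It is also not matched for count level. Without tunicamycin, 30 of the 33 members averaged 100 or more normalized counts, against 5590 of all genes tested. When totals alone set the scale, 40.8% of all called genes were the higher ones rather than the 51.4% under TMM, and 21 of the 33 genes were called higher and 0 lower. On that scale 1774 of all 12733 genes tested were called higher and 2570 lower. The median log2 fold change was 0.53 over the 33 genes and -0.00 over all genes tested. In 19 of the 33 every tunicamycin library exceeded every untreated library, which was the case for 11.7% of all genes tested, and in 0 every one was below (11.9% of all genes). All 5 replicate pairs were higher with tunicamycin for 25 of the 33, against 20.8% of all genes tested. At least 2-fold increases by estimate were found for 9 of the 33, against 5.09% of all genes tested. GET4, a partner of BAG6, was the gene that did not pass, with 4, 1, 0, 0 and 1 counts in untreated replicates 1 to 5 and 1, 1, 1, 1 and 0 with tunicamycin. Exons of SUN1 overlap its 3′ end on the same strand in the GENCODE annotation.

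**Figure D1:**
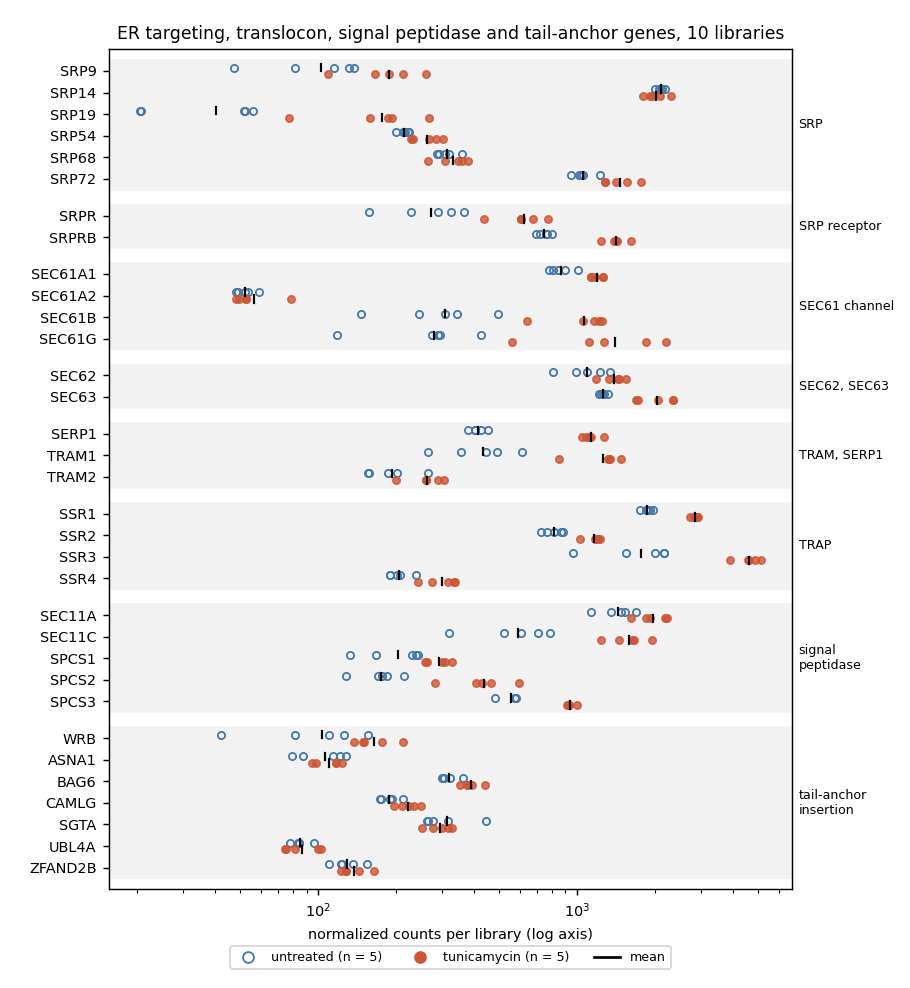
Normalized counts (log axis) of the 33 tested genes in each of the 10 libraries, grouped by role, with untreated libraries as open blue circles, tunicamycin libraries as filled red circles and group means as black bars. The conditions separate for SERP1, SSR1, SSR3, SEC11C, SRPR, SEC61B and SEC61G, and overlap for SRP14, SRP68, SEC61A2 and for all genes of tail-anchor insertion.

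Promoters were searched for the letters of 4 stress elements, because many of these genes moved together. RefSeq promoters, from 250 bases before to 50 after a start (GRCh38.p14), were found for 30 of the 34 genes. All were read on both strands. The ER stress element (ERSE), CCAAT and CCACG parted by any 9 bases, was present in the promoters of 25 of 27305 genes (0.0916%) and in that of SERP1 among the members. The core UPRE, TGACGTGG or CCACGTCA, was present in 253 of 27305 genes (0.927%) and in SEC62, SRP19, SSR3 and SSR4, which is 4 of 30 (13.3%). Its letters contain the CCACG end of the ER stress element. ERSE-II, ATTGG and CCACG parted by any 1 base, was in the promoter of 0 of the 30 genes and of 19 genes in all, and the C/EBP-ATF element TGATGNAA was in that of SRPRB and of 4.46% of genes. Windows of 30 bases are shown for the 5 genes with the first or second element, 5′ to 3′ on the gene's strand and with the element's fixed letters in capitals.
SERP1, chr3:150546704-150546733, minus strand: tcatgCGTGGagacagcgaATTGGtgtttc
SRP19, chr5:112861164-112861193, plus strand: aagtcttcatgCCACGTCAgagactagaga
SSR3, chr3:156554148-156554177, minus strand: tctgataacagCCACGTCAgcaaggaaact
SSR4, chrX:153794528-153794557, plus strand: tcagggaggggCCACGTCAgtgctgccaga
SEC62, chr3:169966779-169966808, plus strand: ccctcctcgctCCACGTCAgagggaaccgg
All 5 windows read the element on the strand opposite to the gene. In GENCODE the windows of SERP1, SRP19, SSR4 and SEC62 touch an exon of some transcript of the gene, and that of SSR3 lies in an intron of a longer transcript. The element begins 232 bases before the start in SERP1, 112 in SRP19, 41 in SSR3, 129 in SSR4 and 17 in SEC62. For SSR3 the start is 1 of 3 in RefSeq and for SSR4 1 of 2. All 5 were among the 25 of 33 members called higher, and nothing is read from that. A match of letters is a description and shows no binding.

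The SEC61 channel is a heterotrimer of an alpha subunit, encoded by SEC61A1 or SEC61A2, with the small subunits SEC61B and SEC61G. The 2 small subunits showed the larger increases of the 4 genes. The normalized counts of SEC61G (GRCh38, chromosome 7 from 54752250 to 54759974) were 118, 274, 289.5, 423 and 295 in replicates 1 to 5 without the drug and 558, 1105, 1265, 1838 and 2193 with it. Its log2 fold change was 2.31 with a standard error of 0.30 (edgeR, adjusted p = 8.31e-06), a 4.94-fold increase that exceeded 99.3% of all genes tested. The conditions did not overlap, although both were wide, with a highest over lowest library of 3.59 in untreated cells and 3.93 with tunicamycin.

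SEC61B (chromosome 9 from 99222064 to 99230615) had 146, 244, 343, 495 and 307 normalized counts in untreated cells and 639, 1048, 1157, 1242 and 1209 with tunicamycin, again without overlap, and a log2 fold change of 1.78 with a standard error of 0.23 (edgeR, adjusted p = 6.71e-06). SEC61A1, the main pore-forming subunit, rose less, from 1009.7, 897, 780.2, 805 and 842 in untreated replicates 1 to 5 to 1258, 1170.0, 1257, 1131 and 1126 with tunicamycin. This was a log2 fold change of 0.46 with a standard error of 0.09 (edgeR, adjusted p = 0.00047). Within the 5 replicate pairs the log2 ratio of tunicamycin to untreated was 0.32 to 0.69 for SEC61A1, 1.33 to 2.12 for SEC61B and 2.01 to 2.89 for SEC61G, so that every pair placed both small subunits above the alpha subunit. This order was seen only after the values were examined and was not tested.

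SEC61A2, the second alpha gene, was scarce. Its normalized counts were 49.1, 48.2, 53.4, 52 and 59 in untreated cells and 52.4, 78.4, 48.2, 49.5 and 52.5 with tunicamycin. The libraries overlapped apart from tunicamycin replicate 2, and the log2 fold change was 0.11 with a standard error of 0.17 (edgeR, adjusted p = 0.642). The log2 ratio of SEC61A2 to SEC61A1 was lower with tunicamycin by 0.37, in 4 of 5 pairs, and did not pass (exact permutation test, two-sided p = 0.0635, adjusted p = 0.102). Without tunicamycin replicate 2 the log2 fold change of SEC61A2 was -0.04. Exons of NUDT5 overlap the 3′ end of SEC61A2 on the opposite strand. The 3′ end of SEC61B has a copy elsewhere in the genome that is 97.3% identical over at least 90% of the last 300 bases, so that the assignment of its reads is uncertain.

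**Figure D2:**
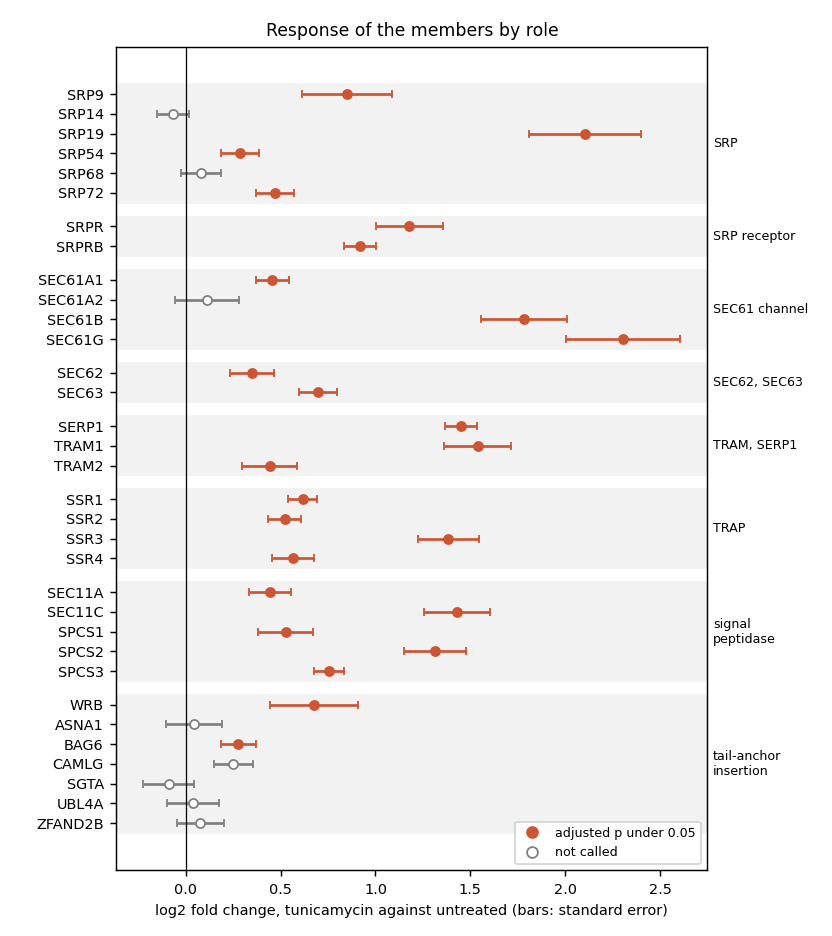
Log2 fold change of each tested gene with tunicamycin against untreated cells (edgeR, 5 against 5 libraries), with bars of one standard error and genes grouped by role. Filled red points are the 25 genes with an adjusted p under 0.05, open grey points the 8 that were not called, and 5 of these 8 belong to tail-anchor insertion.

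SERP1 (RAMP4) is a small tail-anchored protein that sits at the channel and is named for its induction by stress (chromosome 3 from 150541998 to 150603228). It had 452, 402, 426, 379.9 and 402 normalized counts in untreated cells and 1082, 1108, 1133, 1272 and 1039 with tunicamycin. The spread was narrow in both conditions and the gap between them wide, with a log2 fold change of 1.45 with a standard error of 0.09 (edgeR, adjusted p = 2.77e-10), which gave SERP1 the smallest p of the 33 genes. The promoter of SERP1 also holds the letters of the ER stress element printed above, and a link to its increase was not tested.

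TRAM1, a membrane protein beside the channel that contacts signal sequences, rose from 264, 356, 491, 610.1 and 444 to 848, 1316, 1341, 1473 and 1322 normalized counts in replicates 1 to 5, a log2 fold change of 1.54 with a standard error of 0.18 (edgeR, adjusted p = 1.73e-06). Its paralog TRAM2 went from 193 ± 45.2 to 263 ± 40.2 (SD, n = 5 each), with overlapping libraries, a log2 fold change of 0.44 and an adjusted p of 0.0237. Whether the paralogs responded unequally was tested on the log2 ratio of their counts within each library, which needs no scaling between libraries. The log2 ratio of TRAM2 to TRAM1 was -0.74, -1.19, -1.28, -1.20 and -1.26 in untreated replicates 1 to 5 and -2.08, -2.33, -2.13, -2.35 and -2.34 with tunicamycin. It fell by 1.11 on average, in 5 of 5 pairs and without overlap (exact permutation test that ignores the day, two-sided p = 0.00794, adjusted over 8 ratios p = 0.0317). The 8 ratios were chosen with earlier results of these data known, so these p-values describe the difference and are no independent support. By exact sign flips within days the adjusted p was 0.0833, where 0.0625 is the smallest raw p. The change exceeded the spread between libraries of a condition.

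SEC63, which recruits the chaperone BiP to the channel through its J-domain, rose from 1229, 1214, 1262, 1313 and 1252 to 2335, 2346, 2056, 1721 and 1681 normalized counts, without overlap. SEC62, its partner for chains that arrive after synthesis, went from 1089 ± 207 to 1388 ± 139.8 (SD, n = 5 each). Its libraries overlapped, its log2 fold change was 0.35 (adjusted p = 0.0268 by edgeR), and in replicate 4 the pair's log2 ratio was -0.01. The log2 ratio of SEC63 to SEC62 rose in 5 of 5 pairs, by 0.31 on average, but this did not pass the test (exact permutation test that ignores the day, two-sided p = 0.111, adjusted p = 0.148). Exact sign flips within days gave an adjusted p of 0.0833, where 0.0625 is the smallest raw p.

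The TRAP complex, which lies beneath the channel and helps certain signal sequences to insert, has 4 subunits encoded by SSR1, SSR2, SSR3 and SSR4. All 4 were called higher and none overlapped between conditions. Over all genes tested, 17.6% were called higher and 11.7% were higher without overlap. SSR3 (TRAP gamma, chromosome 3 from 156539553 to 156555149) had 961, 1535, 1999.5, 2154 and 2156 normalized counts in untreated cells and 3887, 4597, 4859.6, 5105 and 4542 with tunicamycin, a log2 fold change of 1.38 with a standard error of 0.16 (edgeR, adjusted p = 2.43e-06). SSR1 (TRAP alpha) was even within each condition, with 1883, 1739.8, 1951, 1900.3 and 1836 in untreated cells and 2936, 2828, 2870.0, 2899 and 2730.0 with tunicamycin, and its log2 fold change was 0.62. SSR2 and SSR4 rose by similar amounts, with log2 fold changes of 0.52 and 0.56 (standard errors 0.09 and 0.11). In each of the 5 pairs the log2 ratio of SSR3, 1.07 to 2.01, was above those of the other 3 subunits, which lay between 0.22 and 0.74, an order that was seen in the data and not tested. A noncoding gene on the opposite strand (ENSG00000287916) overlaps the 3′ end of SSR3. Since the strand setting of the counting is not stated, the counts and fold changes of SEC61A2, SSR3, SPCS1 and SRPR may include reads of the genes on the opposite strand at their 3′ ends.

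Signal peptidase consists of a catalytic subunit, either SEC11A or SEC11C, with SPCS1, SPCS2 and SPCS3. All 5 genes were called higher, against 17.6% of all genes tested, and the paralogous catalytic subunits differed. Normalized counts of SEC11C (chromosome 18 from 59139866 to 59158832) were 320.2, 523, 607, 784 and 704 in replicates 1 to 5 of untreated cells and 1236, 1621, 1656, 1934 and 1451 with tunicamycin, without overlap, a log2 fold change of 1.43 with a standard error of 0.17 (edgeR, adjusted p = 3.72e-06). SEC11A had 1124, 1347, 1529.8, 1472 and 1688 in untreated cells and 1613, 1847, 2216, 2173 and 1907 with tunicamycin, with overlap, and a log2 fold change of 0.45 with a standard error of 0.11 (edgeR, adjusted p = 0.00411). In untreated cells SEC11A exceeded SEC11C in every library, and the libraries made from 3′ ends give about one fragment per transcript whatever its length, so that no scaling by length was applied.

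The log2 ratio of SEC11C to SEC11A was -1.81, -1.37, -1.33, -0.91 and -1.26 in untreated replicates 1 to 5 and -0.39, -0.19, -0.42, -0.17 and -0.39 with tunicamycin. It rose by 1.02 in the mean, in 5 of 5 pairs and without overlap (exact permutation test that ignores the day, two-sided p = 0.00794, adjusted over 8 ratios p = 0.0317). With tunicamycin the counts of the 2 paralogs were thus closer to each other, SEC11A still being the higher. This ratio too was chosen with earlier results of these data known, so its p-values are no independent support. By exact sign flips within days the adjusted p was 0.0833, where 0.0625 is the smallest raw p. Among the accessory subunits, SPCS2 rose from 127, 185, 171, 176 and 213 to 281, 428, 407, 593 and 466.1 normalized counts (log2 fold change 1.31). SPCS3, which the active complex needs, rose from 557 ± 41.4 to 939 ± 33.9 and SPCS1 from 202 ± 49.6 to 291 ± 30.3 (SD, n = 5 each), with log2 fold changes of 0.75 and 0.53. None of these 3 overlapped between conditions, and 11.7% of all genes tested were likewise higher without overlap. Exons of NEK4 overlap the 3′ end of SPCS1 on the opposite strand.

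**Figure D3:**
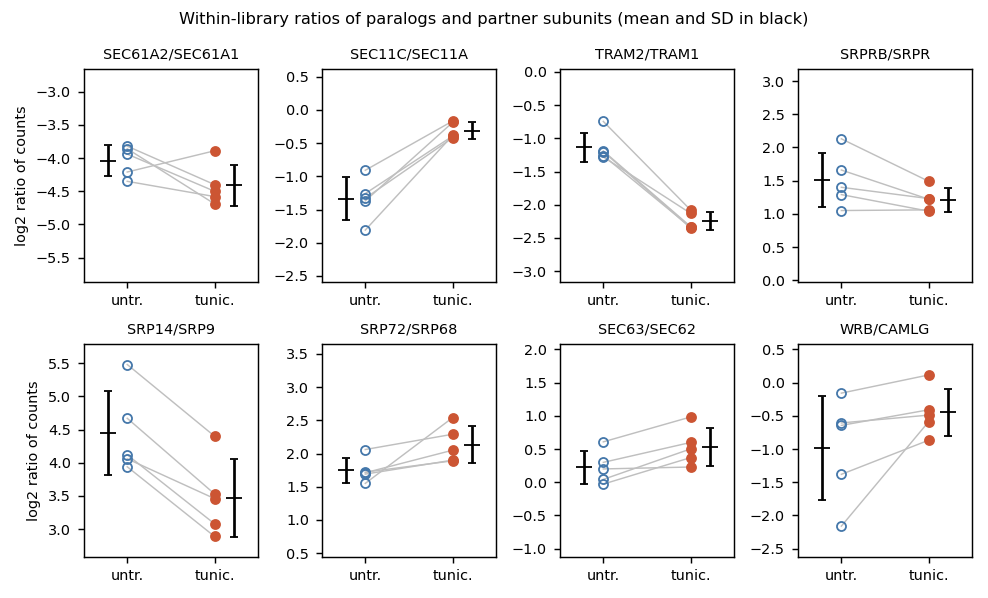
Log2 ratio of the counts of 8 pairs of paralogs or partner subunits within each library, untreated (open blue) and tunicamycin (filled red), with grey lines joining libraries of the same day and the mean ± SD in black; each panel spans the same height. The SEC11C/SEC11A ratio is higher and the TRAM2/TRAM1 ratio lower in every tunicamycin library than in every untreated library.

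The SRP receptor is a dimer of SRPR (SRPRA), the GTPase that meets SRP, and SRPRB, its membrane anchor. SRPR rose from 158, 227, 289, 366 and 326 to 438, 608, 607, 772 and 676 normalized counts in replicates 1 to 5, a log2 fold change of 1.18 with a standard error of 0.18 (edgeR, adjusted p = 4.43e-05). SRPRB rose from 690.3, 719.6, 764, 759.8 and 799 to 1231, 1414, 1419.9, 1607 and 1386, a log2 fold change of 0.92 with a standard error of 0.09 (edgeR, adjusted p = 1.5e-07). Neither overlapped between conditions, and 11.7% of all genes tested were likewise higher without overlap. Their log2 ratio within libraries moved by -0.30 (exact permutation test, two-sided p = 0.183), so that unequal change of the 2 subunits was not detected with 5 libraries per condition. Exons of FAM118B overlap the 3′ end of SRPR on the opposite strand.

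Of the 6 protein subunits of SRP, 4 were called higher, with log2 fold changes from 0.29 to 2.10. Over all genes tested the share called higher was 17.6%. SRP19, which binds the SRP RNA and prepares it for SRP54 (chromosome 5 from 112861188 to 112898371), had 20.7, 20.5, 51.6, 52 and 55.9 normalized counts in untreated cells and 76.9, 186, 159, 192 and 266 with tunicamycin, a log2 fold change of 2.10 with a standard error of 0.30 (edgeR, adjusted p = 2.1e-05). SRP54, the GTPase that holds the signal sequence, went from 217, 199, 221, 224 and 211 to 268, 227, 232, 302 and 285 normalized counts, a small increase (0.29, adjusted p = 0.0365 by edgeR) in which no library overlapped. SRP14 and SRP9 form the dimer that slows elongation. SRP9 rose from 47.3, 81.1, 131, 137 and 115 to 109, 165, 188, 261 and 212 in replicates 1 to 5, with overlap (log2 fold change 0.85, adjusted p = 0.00938 by edgeR), whereas SRP14, the most abundant of the 6 by 3′ counts, had 2098 ± 69.1 in untreated cells and 2004 ± 195 with tunicamycin (adjusted p = 0.584).

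The log2 ratio of SRP14 to SRP9 was 0.98 lower on average with tunicamycin, in 5 of 5 pairs, but the conditions overlapped and the change did not pass after adjustment (exact permutation test that ignores the day, two-sided p = 0.0317, adjusted p = 0.0635). Within days 1 to 5 the differences were -1.08, -1.14, -0.59, -1.05 and -1.04, with an SD of 0.22, against SDs of 0.64 and 0.58 among the untreated and tunicamycin libraries. An exact sign-flip test on 5 days cannot go below a two-sided p of 0.0625, which these differences reached. SRP72 rose from 1219.7, 1050.5, 1029.5, 1019 and 944 to 1767, 1550.1, 1410.5, 1276 and 1277 normalized counts, without overlap, and its dimer partner SRP68 had 313 ± 28.2 and 331 ± 44.3 (adjusted p = 0.58 by edgeR). The ratio of SRP72 to SRP68 likewise rose in 5 of 5 pairs without passing (exact permutation test, difference 0.39, adjusted p = 0.0635). Its differences within days also reached 0.0625, the smallest p of the sign-flip test (adjusted p = 0.0833). Copies of the 3′ ends of SRP9 and SRP72 exist elsewhere in the genome, 97.1% and 95.3% identical. Summed over the 6 subunits, SRP mRNA went from 3821 ± 132 to 4417 ± 281 normalized counts (SD, n = 5 each), 1.16 times, a sum in which SRP14 holds the largest share. For comparison, the same sum over the SEC61 genes was 2.45 times, over TRAP 1.92 times and over signal peptidase 1.76 times that of untreated cells. The genes within these sums rose unequally. By edgeR estimate SEC61A1 rose 1.37-fold and SEC61G 4.94-fold, SSR3 2.61-fold and the other TRAP genes 1.43- to 1.53-fold. SEC11A rose 1.36-fold and SEC11C 2.69-fold.

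Tail-anchor insertion had the lowest median log2 fold change of the 8 roles, 0.08. Of its 7 tested genes 2 were called higher and 5 were not called, and the conditions overlapped for each of them. Over all genes tested, 17.6% were called higher, and 11.7% were higher without overlap. With 7 genes, nothing is read from these counts. WRB (GET1), a receptor subunit, had 42.2, 81.1, 110.2, 156 and 126 normalized counts in untreated cells and 149, 137, 176, 212 and 149 with tunicamycin, a log2 fold change of 0.68 with a standard error of 0.23 (edgeR, adjusted p = 0.0283). The conditions overlapped, and without untreated replicate 1, the lowest of the 10 libraries, the log2 fold change was 0.47 (adjusted p = 0.0332 by edgeR). CAMLG, the other receptor subunit, was at 188 ± 15.9 and 223 ± 21.2 (SD, n = 5 each, adjusted p = 0.0684 by edgeR), higher in 5 of 5 pairs. The log2 ratio of WRB to CAMLG rose by 0.54, also in 5 of 5 pairs, but within the spread between libraries (exact permutation test that ignores the day, two-sided p = 0.206). Exact sign flips within days gave an adjusted p of 0.0833, where 0.0625 is the smallest raw p.

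BAG6, the chaperone that hands over tail-anchored proteins and sends mislocalized ones to degradation, went from 319 ± 25.3 to 387 ± 31.8 normalized counts (SD, n = 5 each, log2 fold change 0.28, adjusted p = 0.0235 by edgeR). The targeting ATPase ASNA1 (GET3) was at 106 ± 21.2 and 110.0 ± 12.8, and SGTA, which receives the anchor first, at 313 ± 75.9 and 295 ± 30.9. UBL4A, a BAG6 partner, and ZFAND2B, a ubiquitin-binding protein of the ER membrane, had log2 fold changes of 0.04 and 0.08 (standard errors 0.14 and 0.12). These 4 genes had adjusted p-values of 0.645 to 0.857 by edgeR. Their log2 fold changes had standard errors of 0.12 to 0.15, so changes of that size were not detectable here. Summed over the 8 genes, tail-anchor insertion was 1.13 times the untreated level. ZFAND2B was counted in this role by choice, and its log2 fold change of 0.08 is the median of the role.

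The calls of 5 genes depended on single libraries. SRP54 was not called without untreated replicate 2 or 5 or tunicamycin replicate 1, 4 or 5, where its adjusted p reached 0.0906 and its log2 fold change was never under 0.23. SEC62 was not called without untreated replicate 1 or 2 or tunicamycin replicate 2, 3 or 5 (up to 0.0742), and its log2 fold change was 0.26 without the first of these. TRAM2 lost its call without untreated replicate 1 or 2 or tunicamycin replicate 3 (up to 0.0762, with a log2 fold change of 0.37 at the lowest). BAG6 lost its call without untreated replicate 3 or 5 or tunicamycin replicate 4 (up to 0.0632, 0.24 at the lowest), and WRB without untreated replicate 2 or tunicamycin replicate 3 or 4 (up to 0.0777, 0.58 at the lowest). CAMLG gained a call without tunicamycin replicate 4 (adjusted p = 0.0397). The other 20 called genes stayed called in every fit that left out one library, all by edgeR.

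The genes differed in how evenly they were counted among libraries of one condition. SSR1, SEC63, SRP14, SRP54, SRPRB, SERP1 and SPCS3 had coefficients of variation of 3.02% to 7.44% in untreated cells. In contrast, 9 genes exceeded 25%, namely SRP9, SRP19, SRPR, SEC61B, SEC61G, TRAM1, SSR3, SEC11C and WRB. In 8 of these 9 the lowest untreated library was replicate 1, in 7 the highest was replicate 4, and in 8 the lowest tunicamycin library was again replicate 1. All 9 were called higher with tunicamycin, against 16 of the other 24 genes and 17.6% of all genes tested. The share called among the uneven genes of the whole table was not counted, so no link between unevenness and increase is read.

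Among the 5590 genes that averaged 100 or more normalized counts without tunicamycin, 4.36% had a coefficient of variation above 25%, against 8 of the 30 members above that level (26.7%). Untreated replicate 1 was the lowest library for 85.2% of the uneven genes among these 5590. The replicate 1 libraries had the highest totals of their conditions, 4888292 and 5029864 counts, and mitochondrial transcripts took 23.8% and 18.3% of them, against 22.7% to 25.2% in the other untreated and 21.3% to 28.8% in the other tunicamycin libraries. The part of depth or RNA quality in this pattern was not tested. With both libraries of replicate 1 left out, 24 of the 33 genes were called higher and 0 lower (edgeR). In that fit 2336 of all 12739 genes tested were called higher and 2060 lower. The log2 fold changes of the 9 uneven genes were then between 0.52 for WRB and 2.32 for SEC61G.

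**Figure D4:**
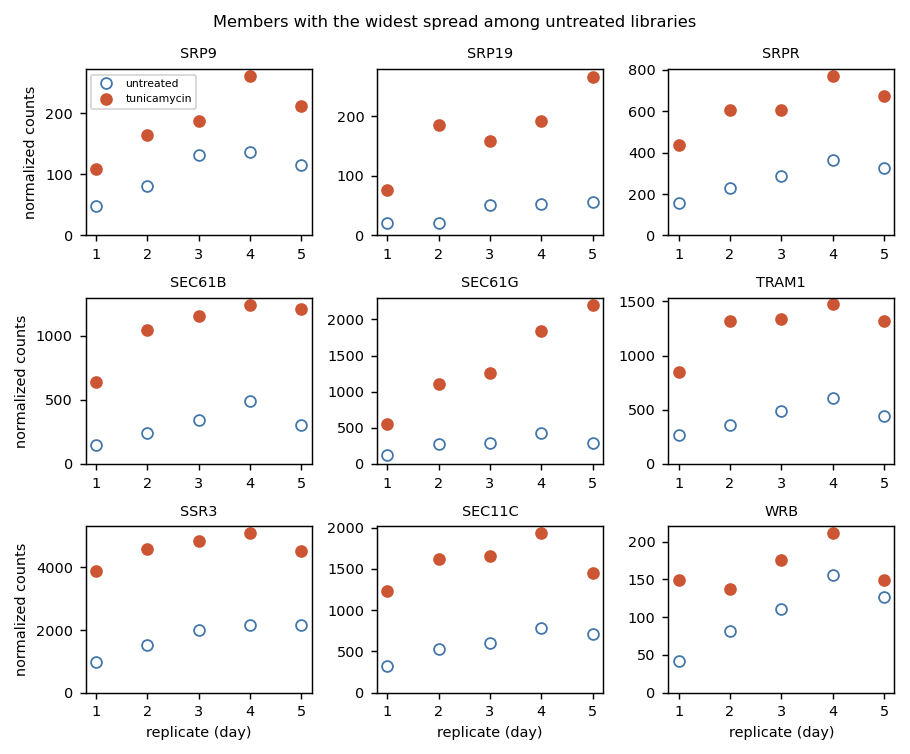
Normalized counts of the 9 genes whose coefficient of variation among untreated libraries exceeded 25%, by replicate number (the day of the experiment), with untreated libraries as open blue and tunicamycin libraries as filled red circles; each axis starts at 0. Replicate 1 holds the lowest untreated value for all but SRP19 and the lowest tunicamycin value for all but WRB, and within every day the tunicamycin library is the higher one.

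Neighbouring machinery at the channel was taken from lists of the same pathway for comparison. Over all genes tested, 17.6% were called higher and 16.6% lower. The oligosaccharyltransferase, which transfers the glycan that tunicamycin keeps from being made, had 8 of 11 tested genes higher and 0 lower, with a median log2 fold change of 0.89. RPN1 had 145, 181, 206, 220.4 and 213 normalized counts in untreated cells and 416, 639, 617, 1316 and 1118 with tunicamycin, a log2 fold change of 2.07 with a standard error of 0.23 (edgeR, adjusted p = 1.56e-06). MAGT1, the oxidoreductase subunit of one form of the enzyme, rose by 1.503 on the log2 scale (standard error 0.09), and DDOST by 0.96 (standard error 0.24).

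The ER membrane protein complex, an insertase for tail anchors and multi-spanning proteins, had 4 of 9 tested genes higher and 0 lower (median 0.22), led by EMC7 (0.91), EMC2 (0.86) and EMC9 (0.63). The multipass translocon, which joins SEC61 for proteins with many membrane spans, had 1 of 8 tested genes higher and 2 lower, with a median log2 fold change of -0.18. These counts are near the shares over all genes tested, 17.6% higher and 16.6% lower, and nothing is read from them. NCLN fell to 441 ± 45 normalized counts with tunicamycin from 569 ± 64 in untreated cells (SD, n = 5 each, adjusted p = 0.00735 by edgeR) and WDR83OS from 577 ± 80.2 to 465 ± 30.5, each in 5 of 5 pairs, while TMCO1 rose with a log2 fold change of 0.23. TMCO1 was not called with library size only, with no filter, or without untreated replicate 1 or 2 or tunicamycin replicate 2, 3 or 5 (adjusted p up to 0.214 by edgeR). WDR83OS was not called without tunicamycin replicate 3 (-0.28, adjusted p = 0.0567) or without both libraries of replicate 1 (-0.21, adjusted p = 0.0671), by edgeR. The list holds 3 near-identical NOMO genes whose reads cannot be assigned with certainty. Of the 4 tested genes that handle nascent chains and cut signal peptides, 2 rose, and these were HM13, the signal peptide peptidase (0.63), and BTF3, a subunit of the nascent chain complex (0.29). BTF3 was not called with library size only, or without untreated replicate 2, 3, 4 or 5 or tunicamycin replicate 4 or 5 (adjusted p up to 0.133 by edgeR).

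**Figure D5:**
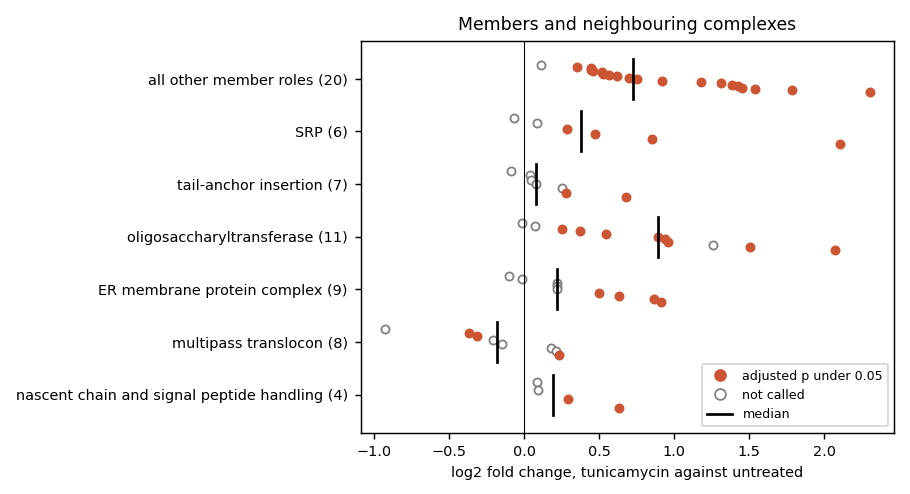
Log2 fold change with tunicamycin of each tested gene (points, filled red where the adjusted p was under 0.05) in 3 groups of the members (SRP, tail-anchor insertion and the 20 genes of all other roles) and 4 lists of neighbouring machinery, with the number of genes in brackets and the median of each group as a black line. The medians are 0.73 for the 20 members of the other roles, 0.38 for SRP, 0.08 for tail-anchor insertion, 0.89 for oligosaccharyltransferase, 0.22 for the ER membrane protein complex, -0.18 for the multipass translocon and 0.19 for nascent chain and signal peptide handling.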

How the data were processed

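Libraries of 5 untreated and 5 tunicamycin cultures of HepG2 cells were prepared with the QuantSeq 3′ kit. The authors processed the reads against hg19 (release 1.4.2 of the RNA-Seq workflow of nf-core, Ensembl release 87, settings left at their defaults) and deposited raw counts per gene, without a filter. The aligner, counting program and strand setting behind these defaults are not given in the sources used here. Genes were filtered with filterByExpr of edgeR 4.0.16 (minimum count 2, minimum total 10, as in the study), scaled by TMM and tested with the quasi-likelihood test, condition as the only term, with Benjamini-Hochberg adjustment over all 12733 genes tested. The standard error is the absolute log2 fold change divided by the square root of F. Ratios of paired members used log2 of counts plus 0.5 within a library and an exact permutation test over 252 splits, whose smallest two-sided p is 0.00794. Log2 ratios of tunicamycin to untreated libraries within a day used normalized counts plus 0.5.

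Replicate numbers mark the day of the experiment in the series text. The deviations of same-day libraries from their group means had correlations of 0.323, 0.0157, 0.0382, 0.133 and 0.102 for replicates 1 to 5 over 10736 genes. For untreated replicates 1 and 4 the tunicamycin library with the highest correlation was that of the same day. For untreated replicates 2, 3 and 5 it was tunicamycin replicate 1, 2 and 4, so the counts bear out the pairing only in part. Whether the cultures of one day were grown apart is not stated.

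The 34 members, the 8 ratios and the gene lists were chosen with earlier results of these data known. All 34 members may be named, and of the other lists up to 3 called genes with the largest changes. The comparison of tunicamycin with untreated cells was simulated from the measured gene means, library sizes and dispersion trend. The test called 82 of 96 genes changed 2-fold (85.4%, log2 fold change 1) and 95 of 103 at a log2 fold change of 2 (92.2%). Among the 12590 genes tested, 4 unchanged genes were called. Simulated libraries were independent and had no effect of the day, and far fewer genes were changed than were called in the data. These rates may therefore not hold for the uneven members. Positions, overlaps and copies come from GRCh38 with GENCODE 44 by Ensembl identifier (34 of 34 matched), and copies from BLAST 2.17.0 of the last 300 bases (at least 90% of them at 95% identity). No hg19 coordinate is given. Promoter sequences come from RefSeq (GRCh38.p14).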

Additional observations from a re-analysis of the deposited data

Results flagged for a closer look

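In 5 of 66 groups of 5 libraries, one library lay far from the other 4 in normalized counts of a member, where chance gives about 3.3 (1 in 20). SEC61A2 had 78.4 in tunicamycin replicate 2, against 48.2 to 52.5 in the others. TRAM1 had 848 in tunicamycin replicate 1, against 1316 to 1473. SSR2 had 1028 in tunicamycin replicate 4, against 1174 to 1225. SPCS3 had 483 in untreated replicate 1, against 573 to 581, and 999 in tunicamycin replicate 4, against 914 to 931. Of these 4 genes, TRAM1, SSR2 and SPCS3 were called higher in each fit that left out one of these libraries, and SEC61A2 was not called in any.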

How the results depend on the processing

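The counts of called genes, members and genes of each list, the log2 fold changes of the members and of the 23 named genes of other lists, and the 8 ratios were recomputed, ratios where the choice applies to them, with DESeq2 1.42.0, its size factors in edgeR, library size only, no filter, the default filter (minimums of 10 and 15), the replicate block, counts thinned to 2234682 per library, a pseudocount of 2 for the ratios, and each library left out. The fit without both libraries of replicate 1, all repeats for the other lists and the within-day test of the ratios were chosen after seeing the data. Sums over roles, counts of separated groups and coefficients of variation were not recomputed. In all 18 settings 20 of the 25 calls stayed, and 0 members were called lower. Over the settings 21 to 25 members were called higher and 3739 to 4811 genes in all (21 to 25 and 3806 to 4488 without single libraries or replicate 1). The replicate block gave 25 members and 4811 genes and changed no call of a member. SRP54, SEC62, TRAM2 and BAG6 lost their calls with library size only (adjusted p 0.153, 0.0965, 0.0602 and 0.131), SRP54 also with no filter (0.0529) and SRP54 and BAG6 after thinning (0.23 and 0.0589). Some uncalled genes near no change crossed it.

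With library size only, ASNA1, UBL4A and ZFAND2B had log2 fold changes of -0.041, -0.038 and -0.0032, and UBL4A -0.0084 after thinning. With single libraries left out, the range was -0.043 to 0.12 for ASNA1 (below 0 without untreated replicate 3 or 5), -0.032 to 0.093 for UBL4A (without tunicamycin replicate 1 or 2), -0.15 to 0.070 for SGTA (above 0 without untreated replicate 1) and -0.041 to 0.17 for SEC61A2 (below 0 without tunicamycin replicate 2). Without both libraries of replicate 1, UBL4A was at -0.026 and SGTA at 0.047, and SRP54 lost its call (adjusted p = 0.0547 by edgeR). Among ratios, the range with libraries left out was 0.91 to 1.13 for SEC11C/SEC11A, -1.15 to -1.01 for TRAM2/TRAM1, -0.50 to -0.30 for SEC61A2/SEC61A1 and -1.21 to -0.72 for SRP14/SRP9. Without replicate 1 the 2 called ratios had an adjusted p of 0.0571; 4 against 4 libraries allow no raw p below 0.0286. SEC61A2/SEC61A1 passed without tunicamycin replicate 2 (adjusted p = 0.0423, exact permutation test) and SRP14/SRP9 without tunicamycin replicate 1 (0.0212). Within days, the 2 called ratios, SEC11C/SEC11A (1.02) and TRAM2/TRAM1 (-1.11), had an adjusted p of 0.0833 by exact sign flips as replicate block, where 0.0625 is the smallest raw p. SRP14/SRP9, SRP72/SRP68, SEC63/SEC62 and WRB/CAMLG had the same adjusted p in that test. Among the hepatocyte markers not called, ALB was at -0.052 and SERPINA1 at -0.012 with library size only, and with libraries left out ALB ranged from -0.029 to 0.11, AFP from -0.38 to 0.033 and SERPINA1 from -0.036 to 0.18. ACTA2 was called lower without tunicamycin replicate 4 (-0.64, adjusted p = 0.0154 by edgeR). Thinned to the smallest library, 23 members were called higher, and GET4, at 0 to 4 counts per library, was under the filter at full depth.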
